A study of Mus musculus with 12 samples.

Results

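The genes of lysosomal proteolysis, lysosomal acidification, and the lysosome membrane were examined in RNA sequencing data of mouse bone marrow-derived macrophages (BMDMs). The set comprised the protein-coding genes with symbols of the cathepsin (*Cts*), proton pump (*Atp6v*, *Atp6ap*), LAMP, LAPTM, and Lamtor families, without *Ctsk* and *Atp6v0d2*, which are best known as genes of osteoclasts. It held 40 of the 18376 genes in the deposited table, namely 8 cysteine, 2 aspartic, and 2 serine cathepsins, 9 V1 and 7 V0 subunits of the pump, 2 accessory proteins of the pump, 2 LAMP proteins, 3 LAPTM proteins, and 5 Ragulator subunits. Another 2 rows with matching symbols were pseudogenes of *Atp6v0c* and were not counted.

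All cells came from bone marrow progenitors of adult wild-type C57BL6/J mice, and every group received 50 ng/ml M-CSF, the growth factor that drives their differentiation into macrophages. There were 4 groups of 3 libraries each, taken after 6 days. CTRL had no further treatment, Act was given activin A at 50 ng/ml, FST was given FST288 at 250 ng/ml, and Act + FST was given the 2 proteins together. Activin A is a ligand of the TGF-β family that signals through SMAD2 and SMAD3, and FST288 is a form of follistatin, which binds activin A and blocks it. The labels number the libraries 1 to 3 in each group and do not say whether they came from separate mice or cultures, so p-values measure the spread between libraries, which may be technical. The study used these cultured cells in place of macrophages of the testis.

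The values are read counts that were scaled library by library and then rounded, and they are called normalized counts in the following. Their totals ranged from 5643708 to 5955400 per library. Macrophage markers were high in every group, with sums of the 7 listed genes between 10525 and 11683 in the 12 libraries, and 0 of 7 differed between Act and CTRL (limma adjusted p of at most 0.05). Markers of T and NK cells summed to at most 4 normalized counts per library, and those of mast cells and basophils to at most 16. B cell markers summed to between 76 and 117. Fibroblast markers summed to between 3 and 55 in CTRL, 12 and 200 in Act, 3 and 90 in Act + FST, and 7 and 107 in FST, and the 2 of them that passed the filter had a median log2 difference of 1.88 between Act and CTRL. Of either list 0 genes differed between Act and CTRL, or 1 fibroblast gene (*Col1a2*, higher) with the replicate block described below. The part of these markers in the results was not tested. The 8 markers of neutrophils and their precursors summed to between 864 and 1192 in CTRL and between 669 and 986 in Act, and 2 of them, *Mpo* and *Elane*, were lower in Act. In RNA from whole cultures, fewer cells of a type and less RNA per cell cannot be told apart.

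Lysosomes break down material taken up by endocytosis, phagocytosis, and autophagy, and macrophages hold many of them. Cathepsins are their proteases, most of which work at acidic pH. The pH is set by the V-ATPase, a rotary pump in which the cytosolic V1 sector hydrolyses ATP and the V0 sector carries protons across the membrane. LAMP proteins line the inner face of the membrane, and the Ragulator complex on its outer face anchors the Rag GTPases that recruit the growth regulator mTORC1. Transcription factors of the MiT/TFE family (TFEB, TFE3, MITF, TFEC) activate many lysosome genes through an E-box known as the CLEAR element.

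Transcript levels were compared between genes as normalized counts per kilobase of exon. Over the 12 libraries, the 39 members with a mean of at least 5 normalized counts had a median level of 209 per kilobase, against 61.9 for all 14309 genes tested that have an exon length, and 21 members lay above the 90th percentile of these genes. In CTRL, the highest member was *Ctss*, a cysteine cathepsin that processes the invariant chain of MHC class II, with 778 per kilobase, followed by *Ctsz* with 674 and the endopeptidase *Ctsb* with 661. *Ctsd*, the main aspartic protease of the lysosome, reached 411, although 34.4% of its exonic bases overlap the gene *Gm49369* on the same strand, and reads overlapping several genes were not counted. *Ctsa*, the serine carboxypeptidase that protects lysosomal sialidase, stood at 348. The leading pump subunits were *Atp6v0d1*, which couples the 2 sectors, with 405, and *Atp6v1a*, the catalytic subunit, with 336. *Atp6ap1*, an assembly subunit, reached 414, *Lamp1* 644, *Laptm5*, a membrane protein of blood cells, 475, and *Lamtor5* 213. The lowest were *Ctse* with 33.8, *Ctsg*, a granule protease of neutrophils, with 19.7, and *Atp6v0e2*, an isoform of a small V0 subunit, with 1.54. *Atp6v0e2* had 0 to 7 normalized counts per library and was the only member under the filter, so it was not tested.

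**Figure D1:**
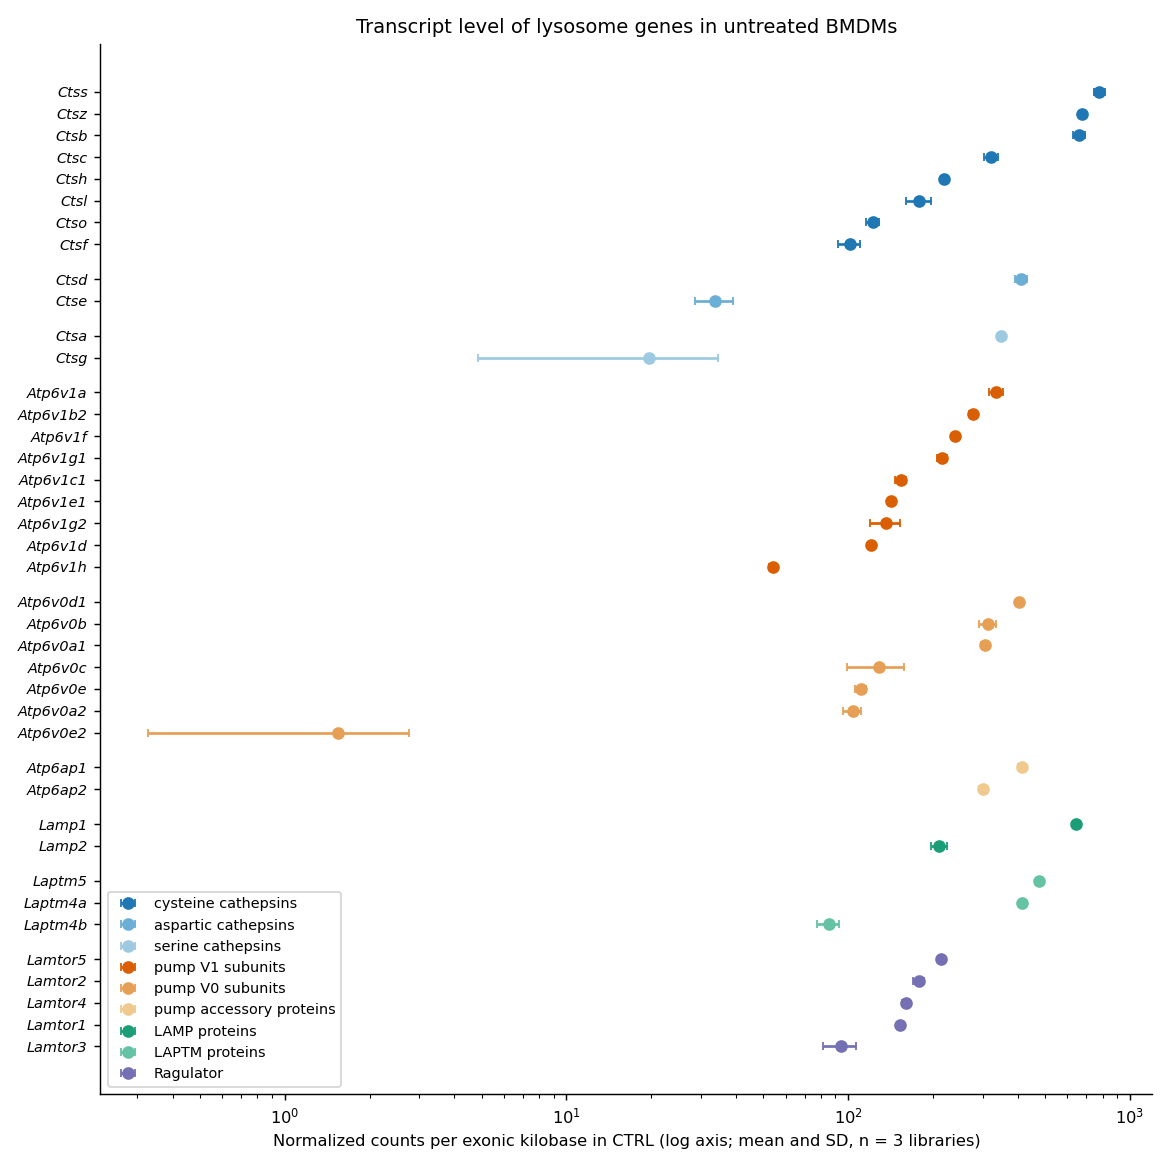
Level of each of the 40 members in untreated BMDMs, as mean and SD of 3 libraries, on a logarithmic axis of normalized counts per exonic kilobase; colours mark the roles. *Ctss* (778), *Ctsz* (674), *Ctsb* (661), and *Lamp1* (644) lead, and *Atp6v0e2* (1.54) is far below the rest.

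Promoter windows of 300 bases (250 before to 50 after the gene start, RefSeq, GRCm38.p6) were available for 30 of the 40 members. The E-box CACGTG was present in 11 of these 30 genes (36.7%), against 8.09% of all 27025 genes with such a window. The longer palindrome TCACGTGA, the core of the CLEAR element, which contains the first motif, was present in 5 of 30 (16.7%), against 1.12%. The palindrome GTCTAGAC, to which SMAD proteins bind in vitro, was present in 0 of 30, against 0.248%. These motifs read the same on either strand. The sites of the 5 genes with TCACGTGA and 2 of the 4 E-boxes of *Lamp1* are shown as the members with the longer motif and the member with the most E-boxes, with the motif in capitals, read 5′ to 3′ on the strand of the gene:
*Ctsd* (chr7:142387908-142387937, minus strand): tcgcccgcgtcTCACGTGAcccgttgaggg
*Atp6v0d1* (chr8:105566050-105566079, minus strand): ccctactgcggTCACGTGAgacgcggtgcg
*Atp6v0e* (chr17:26676387-26676416, plus strand): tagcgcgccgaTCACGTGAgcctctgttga
*Atp6v1a* (chr16:44139373-44139402, minus strand): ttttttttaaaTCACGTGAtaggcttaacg
*Ctsa* (chr2:164833749-164833778, plus strand): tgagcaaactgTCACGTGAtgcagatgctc
*Lamp1*, farthest from the start (chr8:13159088-13159117, plus strand): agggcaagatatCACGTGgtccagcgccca
*Lamp1*, nearest to the start (chr8:13159134-13159163, plus strand): acgtgaccacatCACGTGcggaacggagcc
*Ctsa* held a second TCACGTGA next to the one shown. In the GENCODE annotation of GRCm38, the sites of *Lamp1* and *Atp6v0d1* lay outside the gene, before its start, those of *Ctsd*, *Atp6v0e*, and *Ctsa* in untranslated exon sequence (UTR), and that of *Atp6v1a* in an intron. The other 5 genes with a CACGTG were *Lamtor1*, *Lamtor4*, *Ctsf*, *Ctsl*, and *Atp6v0b*. A match shows only that these letters are present in the window. The genes set beside the members were not filtered by biotype or by expression in these cells, whereas all members are protein-coding.

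To describe the effect of activin A, Act was compared with CTRL. The transcript level of *Ctse* rose 3.01-fold. The V0 subunit *Atp6v0a1* fell by 27.0%, and smaller falls of 12.3% to 14.8% were found for *Ctsl*, *Ctsb*, *Atp6v1a*, *Atp6v1h*, and *Atp6v0e*. In limma, 1 of the 39 members tested was higher in Act (2.56%), against 10.3% of all 14318 genes, and 6 were lower (15.4%), against 9.97%. With a change of at least 2-fold as a further condition, *Ctse* remained as the only higher member (2.58% of all genes were higher) and 0 members were lower (3.09% of all genes). *Ctsk* and *Atp6v0d2*, which the set leaves out, both fell by more than 2-fold, as given below. The median log2 fold change of the members was −0.07, with 31 of 39 below 0, whereas over all genes it was 0.00, with 49.3% below 0. The groups did not overlap for 16 members lower in Act (41.0%), against 17.6% of all genes, and for 4 members higher in Act (10.3%), against 18.0%.

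Libraries sharing a replicate number also shared deviations from their groups, and a model with the replicate number as a block was therefore fitted as well. With the block, 4 members were higher in Act (16.3% of all genes) and 11 were lower (15.2% of all genes). Without replicate 3 of Act the lower count went from 6 to 2, while *Ctsl* (−0.20), *Ctsb* (−0.20), *Atp6v1a* (−0.17), and *Atp6v0e* (−0.20) kept log2 differences below 0. Without replicate 2 of Act it was 3, while the higher count rose from 1 to 2 without replicate 1 of Act or replicate 2 of Act + FST. The shares over all genes in these fits without a library are not given here, so the counts cannot be set against them.

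**Figure D2:**
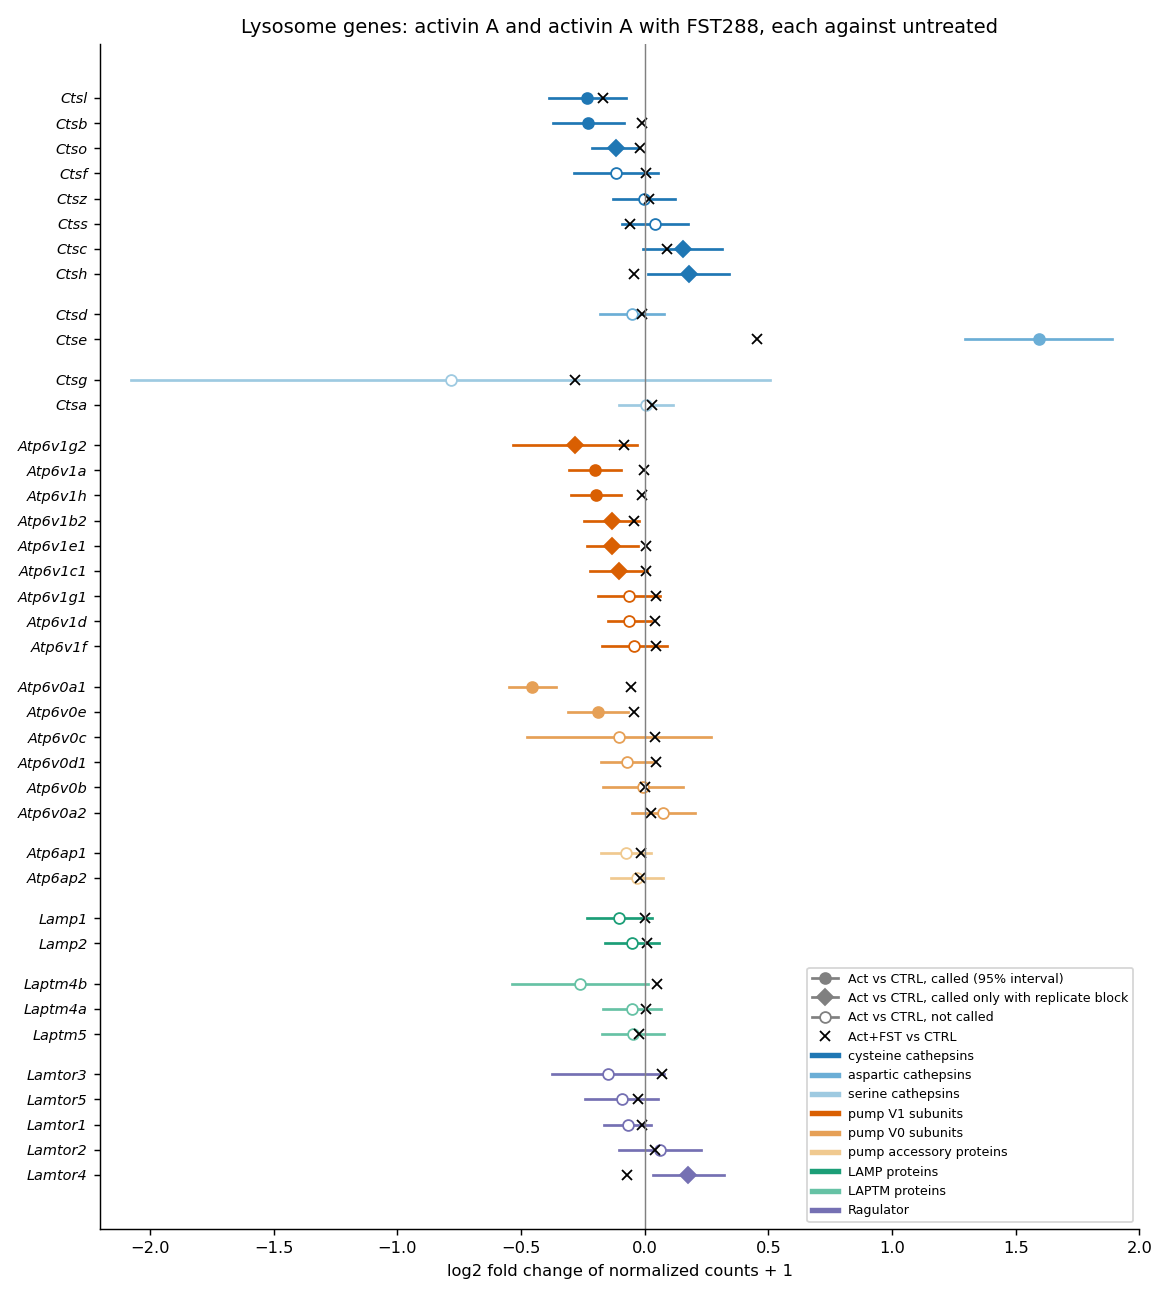
Log2 fold change of the 39 members tested, ordered by role: circles and diamonds with 95% intervals give Act versus CTRL, crosses Act + FST versus CTRL. *Ctse* (1.59) stands to the right, *Atp6v0a1* (−0.45) is the lowest of the filled symbols, and nearly all crosses lie close to 0.

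*Ctse* (ENSMUSG00000004552, chromosome 1, 131638306 to 131675505) encodes cathepsin E, an aspartic protease of endosomes that is found in immune cells and epithelia. Its normalized counts were 114, 119, and 88 in CTRL and 294, 378, and 300 in Act. They were 144, 160, and 134 in Act + FST and 129, 108, and 103 in FST. The 3 Act libraries lay above the other 9, and the Act + FST libraries lay above those of CTRL. The log2 fold change of Act versus CTRL was 1.59 (SE 0.14), with a limma adjusted p of 8e-06. Per kilobase its level went from 33.8 ± 5.2 in CTRL to 102 ± 15 in Act (SD, n = 3), so it remained below most other cathepsins. *Ctsd*, the other aspartic cathepsin, had 1020, 927, and 949 normalized counts in the CTRL libraries and 964, 912, and 916 in Act, a log2 difference of −0.05 with a 95% interval of −0.18 to 0.08. Dendritic cells can also express *Ctse*, and the 5 dendritic cell markers listed summed to between 64 and 153 normalized counts in CTRL, 114 and 180 in Act, and 73 and 136 in Act + FST. Of these markers, 4 passed the filter and 0 differed between Act and CTRL, or 2 with the block (*Siglech* and *Flt3*, both higher). The 4 markers had a median log2 difference of 0.66 between Act and CTRL, with 3 above 0 and 1 below. Their part in the *Ctse* values was not tested.

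Among the 8 cysteine cathepsins, *Ctsb* and *Ctsl* were lower in Act, while *Ctsc* and *Ctsh* were higher and *Ctso* lower only with the block. The share of all genes called in either direction was 20.2% without the block and 31.5% with it. *Ctsb*, an endopeptidase, had 4189, 3792, and 4021 normalized counts in the CTRL libraries and 3557, 3391, and 3301 in Act. It had 3688, 4284, and 3965 in Act + FST and 3891, 4305, and 3877 in FST, so the Act libraries were the 3 lowest of the 12. The log2 fold change was −0.23 (SE 0.07), with a limma adjusted p of 0.03. Its exons overlap *Fdft1* on the opposite strand over 12.8% of their length. *Ctsb* lies near the top of the scale of levels, where the highest gene reaches 883 per kilobase. With a correction for reads that share a start position its log2 fold change was −0.38, with the same limma adjusted p of 0.03. This correction applies only if duplicate reads were removed before counting, which is not stated in the sources used here. The call was lost without replicate 1 or 3 of CTRL and without replicate 2 or 3 of Act, where the limma adjusted p was 0.088, 0.091, 0.085, and 0.1.

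*Ctsl*, an endopeptidase related to *Ctsb*, had 1289, 1104, and 1081 normalized counts in the CTRL libraries and 1030, 982, and 940 in Act. In Act + FST it had 1072, 1059, and 958, and in FST 1176, 1165, and 1049. The Act libraries lay below those of CTRL and FST and overlapped those of Act + FST. The log2 fold change was −0.23 (SE 0.07), with a limma adjusted p of 0.04. The call was lost without replicate 1 of CTRL, without replicate 2 of Act, or without replicate 3 of Act, where the limma adjusted p was 0.13, 0.096, and 0.13. Without replicate 1 of CTRL the log2 fold change was −0.15. Of its exonic bases, 26.8% overlap *Gm47123* on the opposite strand and 6.09% overlap *Gm49230* on its own strand, and the strand setting of the counting is not given in the sources used here.

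*Ctsh*, an aminopeptidase, had 994, 993, and 955 normalized counts in CTRL, 1102, 1127, and 1098 in Act, 922, 1084, and 861 in Act + FST, and 910, 1054, and 916 in FST. The Act libraries were the 3 highest of the 12. The limma adjusted p for Act versus CTRL was 0.12 without and 0.016 with the block, at a log2 difference of 0.18. *Ctsc*, which activates the granule proteases of leukocytes, had 1991, 1848, and 1779 in CTRL and 2186, 2039, and 2020 in Act. Its log2 difference was 0.15, with a limma adjusted p of 0.17 without and 0.026 with the block. *Ctso* had 626, 595, and 659 in CTRL and 572, 595, and 566 in Act, with a log2 difference of −0.12 and a limma adjusted p of 0.081 without and 0.044 with the block. *Ctss* (1111, 1025, and 1035 in CTRL, 1117, 1059, and 1089 in Act), *Ctsz*, and *Ctsf* were called in neither model. The 95% intervals of their log2 differences were −0.09 to 0.18, −0.13 to 0.12, and −0.28 to 0.05.

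Of the serine cathepsins, *Ctsa* had 1657, 1597, and 1666 normalized counts in the CTRL libraries and 1692, 1616, and 1631 in Act, a log2 difference of 0.01 with a 95% interval of −0.10 to 0.11. *Ctsg* had 11, 38, and 12 in CTRL and 4, 13, and 16 in Act, and its wide interval of −2.08 to 0.51 shows that a change could not be resolved in these libraries. The neutrophil granule genes *Mpo* and *Elane* were lower. *Mpo* had 80, 162, and 54 in CTRL and 15, 42, and 15 in Act, and *Elane* 29, 66, and 16 in CTRL and 7, 13, and 9 in Act, with limma adjusted p-values of 0.0092 and 0.025. The 8 neutrophil and precursor markers had a median log2 fold change of −0.45, and their part in the *Ctsg* values was not tested.

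**Figure D3:**
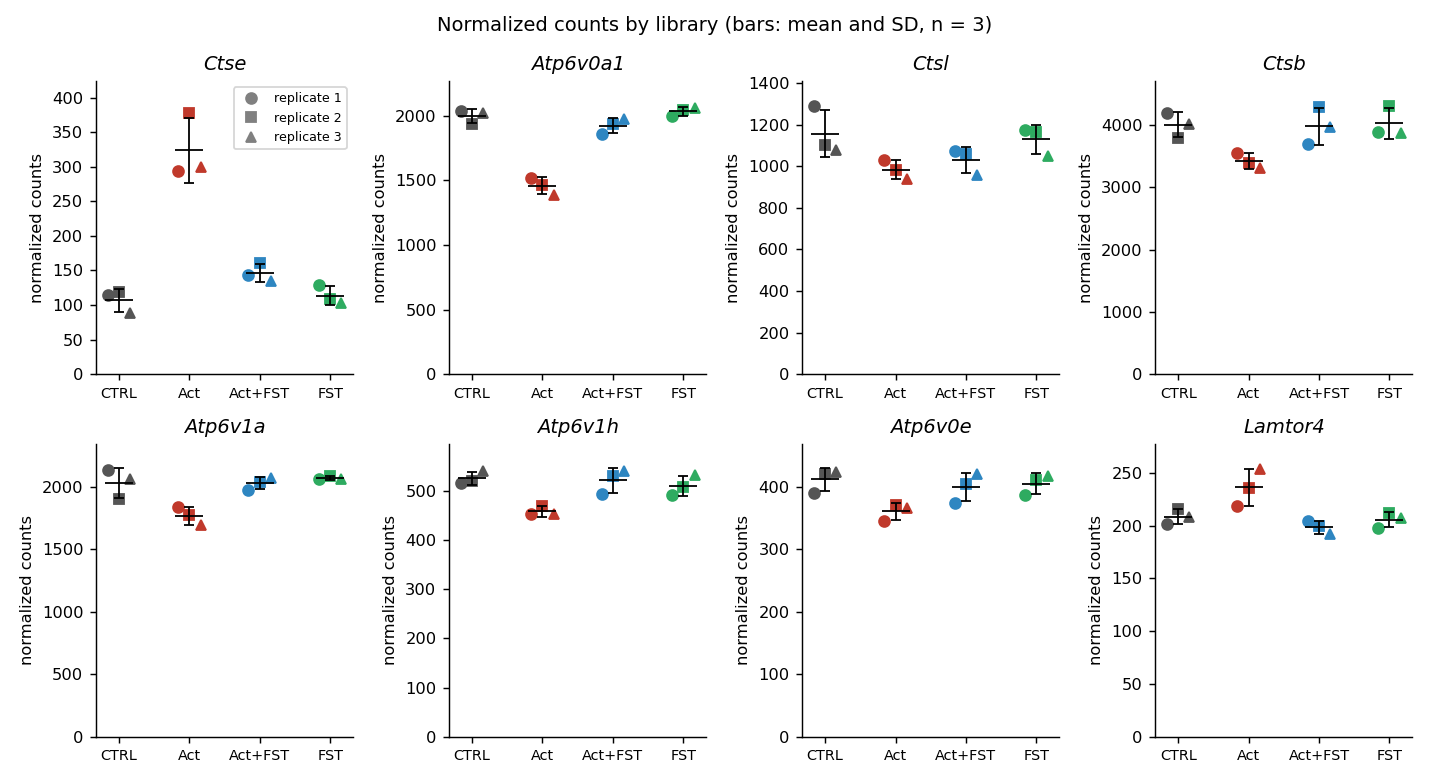
Normalized counts of the 7 members that differed between Act and CTRL and of *Lamtor4*, by group; symbols give the replicate number, bars the mean and SD of 3 libraries, and each axis starts at 0. In *Ctse* the Act libraries (294 to 378) lie above all others, and in *Atp6v0a1* (1389 to 1521) below all others.

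The pump genes had lower values in Act nearly throughout. All 9 V1 subunits and 5 of the 6 V0 subunits tested had a log2 difference below 0, with a median of −0.10 over the 15 genes. In limma 4 of the 15 fell (*Atp6v0a1*, *Atp6v0e*, *Atp6v1a*, *Atp6v1h*) and 0 rose, against 9.97% of all genes lower and 10.3% higher. With the block 8 fell (15.2% of all genes) and 0 rose (16.3% of all genes), the further 4 being *Atp6v1g2*, *Atp6v1b2*, *Atp6v1e1*, and *Atp6v1c1*. In 10 of the 15 genes Act was below CTRL in each of the 3 replicate numbers, and in 1 it was above. Over all members these counts were 22 of 39 below (56.4%), against 27.8% of all genes, and 7 above (17.9%), against 28.9%. Summed per kilobase, the V1 sector ranged from 1652 to 1691 in CTRL, 1510 to 1540 in Act, 1592 to 1733 in Act + FST, and 1638 to 1742 in FST, so that the Act libraries lay below the other 9. The sum of the V0 members, which leaves out the V0 genes *Tcirg1* and *Atp6v0d2* outside the set, ranged from 1308 to 1417 in CTRL and from 1223 to 1274 in Act.

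*Atp6v0a1* (ENSMUSG00000019302, chromosome 11, 101009452 to 101063719) encodes an a subunit, the large membrane protein through which protons pass. Its normalized counts were 2038, 1935, and 2024 in CTRL and 1521, 1467, and 1389 in Act. They were 1860, 1933, and 1974 in Act + FST and 1999, 2041, and 2063 in FST. The Act libraries were well below the other 9, which lay close together. The log2 fold change was −0.45 (SE 0.04), with a limma adjusted p of 1.8e-05, and it ranged from −0.49 to −0.42 when single libraries were left out. With the correction for shared start positions it was −0.53. The pump uses 1 a subunit at a time, and *Atp6v0a2* and *Tcirg1* encode alternatives to it, the latter being the form of the osteoclast ruffled border. Per kilobase, *Atp6v0a1* made up 36.4% ± 1.3 of these 3 transcripts in CTRL and 30.4% ± 1.6 in Act (SD, n = 3). The share was 35.7% ± 0.7 in Act + FST and 36.7% ± 0.8 in FST. *Atp6v0a2* made up 12.4% ± 1.0 in CTRL and 14.9% ± 0.5 in Act, and *Tcirg1* 51.2% ± 2.0 in CTRL and 54.7% ± 2.1 in Act. The level of *Tcirg1* itself was 429 ± 20 per kilobase in CTRL and 401 ± 21 in Act, a log2 difference of −0.10 that was not called. The level of *Atp6v0a2* itself did not pass the test, with 756, 671, and 666 normalized counts in CTRL, 766, 721, and 716 in Act, and a log2 difference of 0.08. It was the only pump subunit with a higher value in Act in all 3 replicate numbers.

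The remaining falls of V0 concerned *Atp6v0e*, a small subunit, with 391, 421, and 424 normalized counts in the CTRL libraries and 346, 371, and 367 in Act. It had 375, 405, and 420 in Act + FST and 387, 411, and 418 in FST, and the Act libraries were the 3 lowest of the 12. The log2 fold change was −0.19 (SE 0.06), with a limma adjusted p of 0.032. The call was lost when replicate 2 or 3 of CTRL or any replicate of Act was left out, with limma adjusted p-values between 0.05 and 0.12. *Atp6v0d1* had 712, 716, and 752 in CTRL and 687, 692, and 693 in Act, where its libraries were again the 3 lowest of the 12, but its log2 difference of −0.07 was not called (limma adjusted p = 0.34). *Atp6v0c*, which forms the rotor ring, varied more between replicates (319, 497, and 488 in CTRL, 347, 416, and 432 in Act), and its 95% interval of −0.47 to 0.27 was the widest of the pump. *Atp6v0b*, another ring subunit, had a log2 difference of −0.01.

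In the V1 sector, *Atp6v1a* had 2130, 1900, and 2059 normalized counts in the CTRL libraries and 1834, 1777, and 1690 in Act. It had 1974, 2037, and 2069 in Act + FST and 2063, 2085, and 2063 in FST. The log2 fold change was −0.20 (SE 0.05), with a limma adjusted p of 0.011, which was 0.055 without replicate 3 of Act. *Atp6v1h*, which regulates ATP hydrolysis, had 515, 520, and 540 in CTRL and 452, 470, and 452 in Act, against 493 to 541 in Act + FST and 492 to 532 in FST. Its log2 fold change was −0.20 (SE 0.05), with a limma adjusted p of 0.01. In both genes the 3 Act libraries were the lowest of the 12.

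*Atp6v1g2*, an isoform of a stalk subunit best known from neurons, had 297, 379, and 346 normalized counts in the CTRL libraries and 252, 305, and 281 in Act. Act + FST had 292, 362, and 309, and FST 288, 369, and 332. The groups overlapped, but within each replicate number Act was the lowest of the 4 groups. At a log2 difference of −0.28 the limma adjusted p was 0.11 without the block and 0.00031 with it. The noncatalytic nucleotide-binding subunit *Atp6v1b2* (−0.13) and the stalk subunits *Atp6v1e1* (−0.13) and *Atp6v1c1* (−0.10) had limma adjusted p-values of 0.088, 0.072, and 0.2 without the block and of 0.029, 0.031, and 0.032 with it. *Atp6v1g1*, *Atp6v1d*, and *Atp6v1f* were called in neither model, with log2 differences of −0.06, −0.06, and −0.04. The accessory proteins differed little. *Atp6ap1* had 1299, 1212, and 1246 in CTRL and 1187, 1189, and 1188 in Act (95% interval of the log2 difference −0.18 to 0.02), and the interval of *Atp6ap2*, the prorenin receptor, was −0.14 to 0.07.

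**Figure D4:**
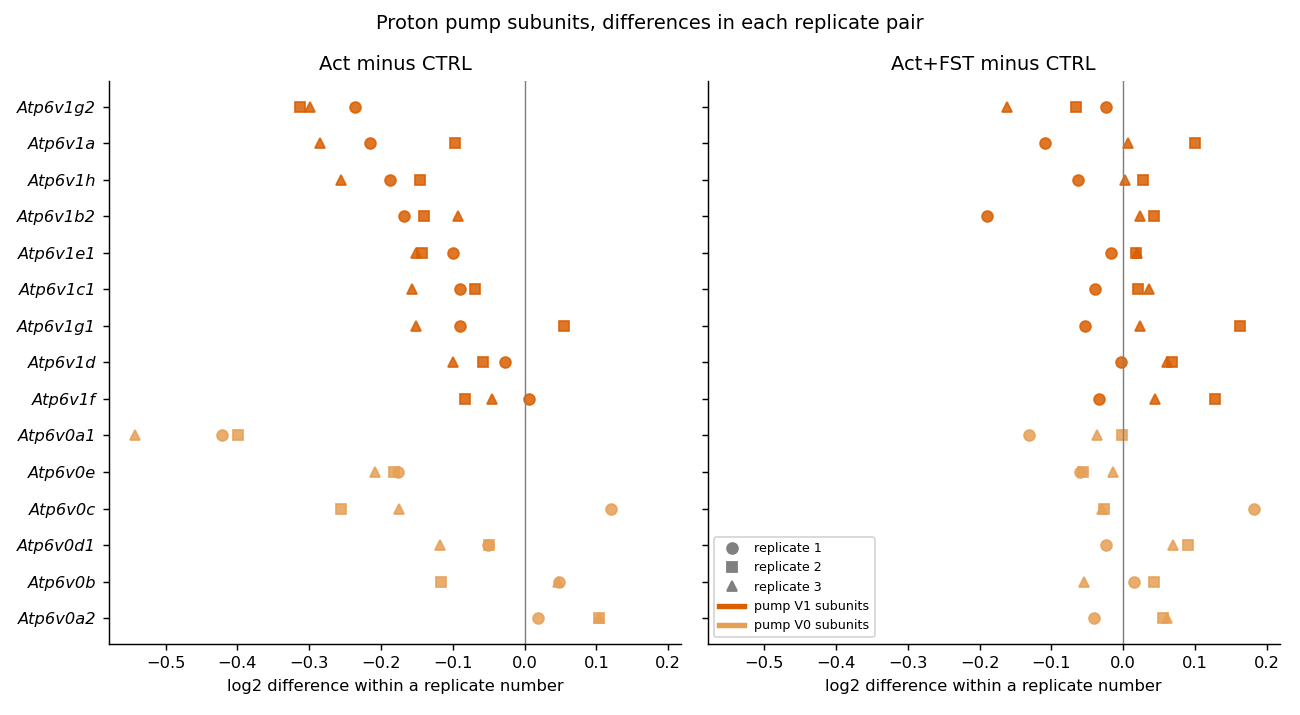
Log2 differences of the 15 pump subunits tested within replicate numbers 1, 2, and 3, for Act minus CTRL on the left and Act + FST minus CTRL on the right. On the left 10 genes are below 0 in all 3 pairs and *Atp6v0a1* is the farthest from 0, whereas on the right the points lie on either side of 0.

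Of the LAMP, LAPTM, and Ragulator genes, 0 of 10 differed between Act and CTRL without the block, and *Lamtor4* alone did with it. Of all genes, 20.2% were called in either direction without the block and 31.5% with it. *Lamp1* had 1766, 1671, and 1730 normalized counts in CTRL, 1629, 1582, and 1600 in Act, 1587, 1864, and 1728 in Act + FST, and 1649, 1869, and 1699 in FST. Its Act libraries lay below those of CTRL, but the log2 difference of −0.10 was not called (limma adjusted p = 0.27, or 0.16 with the block), and the 95% interval was −0.23 to 0.03. With the correction for shared start positions the difference was −0.17 and was not called either. *Lamp2*, the LAMP needed for chaperone-mediated autophagy, had an interval of −0.16 to 0.06. *Laptm5* (1839, 1766, and 1794 in CTRL, 1796, 1696, and 1739 in Act) and *Laptm4a* had log2 differences of −0.05 each. *Laptm4b* had 152, 181, and 162 in CTRL and 148, 150, and 116 in Act, with a log2 difference of −0.26 and a limma adjusted p of 0.18.

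Of the Ragulator subunits, *Lamtor4* had 202, 216, and 208 normalized counts in the CTRL libraries and 219, 236, and 254 in Act. It had 204, 200, and 192 in Act + FST and 198, 212, and 207 in FST, and the Act libraries were the 3 highest of the 12. The log2 difference from CTRL was 0.18, with a limma adjusted p of 0.08 without and 0.047 with the block. *Lamtor5* had 185, 189, and 191 in CTRL and 180, 166, and 184 in Act, a log2 difference of −0.09. *Lamtor3* (332, 401, and 437 in CTRL, 343, 342, and 364 in Act), *Lamtor1*, and *Lamtor2* had log2 differences of −0.15, −0.07, and 0.06, none of which was called in either model. Over the 31 members not called without the block whose mean was at least 50 normalized counts, log2 differences ranged from −0.28 to 0.18 and their 95% intervals lay within −0.54 to 0.34.

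Act was next compared with Act + FST, which share activin A and differ in the antagonist. *Ctse* was higher in Act by 1.14 on the log2 scale (limma adjusted p = 0.0001), and *Lamtor4* by 0.25 (limma adjusted p = 0.017). *Atp6v0a1* was lower in Act by a log2 difference of −0.40 (limma adjusted p = 5.2e-05), as were *Ctsb* (−0.22, limma adjusted p = 0.035), *Atp6v1a* (−0.20, limma adjusted p = 0.011), and *Atp6v1h* (−0.19, limma adjusted p = 0.013). Thus 2 of 39 members were higher, against 11.1% of all genes, and 4 were lower (10.3%), against 10.2%. With the block the counts were 3 (17.1% of all genes) and 12 (30.8%, against 15.4% of all genes). The 12 were 9 pump subunits together with *Ctsb*, *Laptm4b*, and *Lamtor3*, the last with a limma adjusted p of 0.0071. The lower count of 4 became 10 without replicate 1 of Act + FST and 2 without replicate 3 of Act or replicate 3 of Act + FST, and the higher count became 1 without replicate 2 or 3 of Act or replicate 3 of Act + FST. Shares over all genes are not given for these fits. *Ctsl* was not called here (log2 difference −0.06, limma adjusted p = 0.59). The comparisons with CTRL and with Act + FST share the Act libraries.

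Set against all 9 other libraries, Act was lower without overlap for 8 members (20.5%), against 11.3% of all genes. They were *Ctsb* and 7 pump subunits (*Atp6v0a1*, *Atp6v0d1*, *Atp6v0e*, *Atp6v1a*, *Atp6v1d*, *Atp6v1e1*, *Atp6v1h*). It was higher without overlap for 3 members (*Ctse*, *Ctsh*, *Lamtor4*), against 12.6% of all genes.

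In Act + FST versus CTRL, 0 of 39 members were called by limma, against 0.0% of all genes, and the median log2 difference of the members was 0.00. At an unadjusted p under 0.05 there were 2 members (*Ctse* and *Ctsl*) and 655 genes in all. With the block 0 members were called, against 0.559% of all genes. *Ctse* had a log2 difference of 0.45 from CTRL (95% interval 0.16 to 0.75), with limma adjusted p-values of 0.76 without and 0.066 with the block. *Ctsl* had a log2 difference of −0.17 (95% interval −0.32 to −0.01), with limma adjusted p-values of 1 without and 0.087 with the block. In FST versus CTRL 0 members were called in either model, against 0.0% of all genes in each. At an unadjusted p under 0.05 there were 0 members and 299 genes. Member log2 differences ranged from −0.05 to 0.09 between FST and CTRL.

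Whether the effect of activin A differed in the presence of FST288 was tested by the interaction, the difference of Act minus CTRL from Act + FST minus FST. It was called for *Ctse* (1.23, limma adjusted p = 0.0026) and *Atp6v0a1* (−0.37, limma adjusted p = 0.0036), 5.13% of the members against 6.74% of all genes. With the block it was called for 5 members (16.3% of all genes), the further ones being *Atp6v1h*, *Atp6v1g2*, and *Atp6v0e*, with limma adjusted p-values of 0.012, 0.018, and 0.049.

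The members with and without an E-box in the promoter window were set side by side for Act versus CTRL. The 11 members with CACGTG had a median log2 fold change of −0.07, with 0 higher and 3 lower, and the 28 others tested had a median of −0.07, with 1 higher and 3 lower. Of all genes, 10.3% were higher and 9.97% lower. The 28 others include members without a promoter window, among them *Ctse*, *Ctsb*, and *Atp6v1h*, which were called. Whether these have an E-box there is not known.

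Other lysosome genes, taken from lists, are given beside the members. Their counts are to be read against the shares over all genes, 10.3% higher and 9.97% lower, or 16.3% and 15.2% with the block. Of 36 soluble hydrolases and activators, 3 fell, or 8 with the block, and the median log2 fold change was −0.06. *Smpd1*, the acid sphingomyelinase, fell from 440, 444, and 425 to 363, 394, and 345 (−0.25, limma adjusted p = 0.0042), and *Gla*, α-galactosidase A, by −0.23 (limma adjusted p = 0.017). Of 15 other lysosome membrane proteins, *Scarb2*, the receptor that carries β-glucocerebrosidase, rose by 0.21 (limma adjusted p = 0.026) and 0 fell, or 3 with the block. Of 6 genes of mannose 6-phosphate sorting, *Sort1* rose by 0.22 (limma adjusted p = 0.029) and 0 fell, or 2 and 1 with the block. Of 3 cathepsin inhibitors tested, *Cst7*, cystatin F, rose from 58, 74, and 58 to 122, 104, and 125 (0.88, limma adjusted p = 0.00084), and it had 89, 85, and 113 in Act + FST.

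A list of 9 pump genes outside the set held the a subunit *Tcirg1* and partners of the pump. Of these, 2 rose and 0 fell, or 2 and 2 with the block, with a median of −0.06. *Dmxl2*, a subunit of the RAVE-like complex that assembles V1 on V0, rose from 1104, 1021, and 1152 normalized counts in CTRL to 1953, 1932, and 1812 in Act (log2 fold change 0.80, limma adjusted p = 1.1e-05), with 1143, 960, and 997 in Act + FST. *Rogdi*, a further protein of that complex, rose from 331, 384, and 326 to 495, 522, and 558 (0.60, limma adjusted p = 0.00077), with 308, 396, and 328 in Act + FST. The partners and the subunits thus included changes of opposite sign. Of 18 partners of Ragulator and mTORC1, *Rragd*, a Rag GTPase, fell from 631, 687, and 789 to 530, 530, and 396 (−0.54, limma adjusted p = 0.0043), and 0 rose. With the block 4 fell. Of the 4 MiT/TFE factors, *Mitf* rose by 0.22 (limma adjusted p = 0.045), while *Tfeb*, *Tfe3*, and *Tfec* had log2 differences of 0.03, 0.01, and −0.04.

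**Figure D5:**
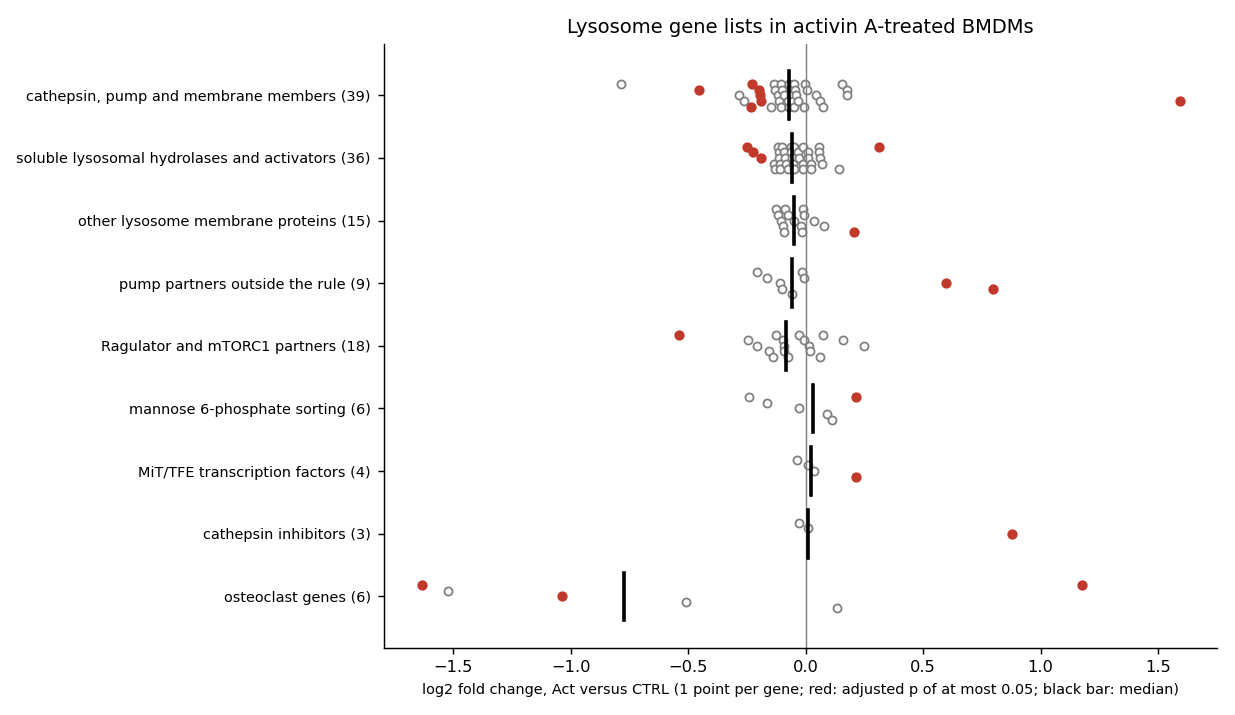
Log2 fold change of Act versus CTRL for each tested gene of the members and of 8 lists, with the number tested in brackets; filled points passed the limma test and black bars are medians. Most medians lie within a small distance of 0, with the members at −0.07. The pump partners, listed together with the a subunit *Tcirg1*, are at −0.06, with *Dmxl2* (0.80) and *Rogdi* (0.60) to the right.

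The cathepsin and the pump subunit that were left out of the set changed more than its members other than *Ctse*. *Ctsk*, the collagen-degrading cathepsin of osteoclasts, had 108, 120, and 80 normalized counts in CTRL, 30, 40, and 27 in Act, and 57, 56, and 62 in Act + FST (Act versus CTRL −1.64, limma adjusted p = 6.7e-05). *Atp6v0d2*, the osteoclast isoform of *Atp6v0d1*, had 1194, 1030, and 984 in CTRL, 601, 548, and 422 in Act, and 898, 822, and 702 in Act + FST (−1.04, limma adjusted p = 0.00011). *Acp5*, the tartrate-resistant acid phosphatase of osteoclasts, moved the other way, from 99, 89, and 57 to 189, 174, and 181 (1.18, limma adjusted p = 0.0018). Of 6 osteoclast genes tested, 1 rose and 2 fell, or 2 and 3 with the block.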

How the data were processed

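The authors made cDNA libraries from mRNA with a stranded kit, trimmed the single-end reads with Trimmomatic 0.39, aligned them to mm10 with STAR 2.7.9a, and counted reads per gene with featureCounts 2.0.2, leaving aside ambiguous and multimapping reads. What the authors deposited is a signal of 0 or more, obtained from these counts by a scaling of each library and rounding. The formula of the scaling is not given in the sources used here. Because these values are no raw counts, the count test of the authors (DESeq2 1.30.0) was replaced by limma 3.58.1 in R 4.3.3 (trend on the mean) on log2(normalized count + 1), a scale that understates changes of low genes. All 12 libraries entered 1 model with 4 group means. Tested were 14318 genes whose mean reached at least 5, and calls required a p of at most 0.05 after Benjamini-Hochberg adjustment over all of them. The thresholds on the mean and on p follow the study's methods, whose further condition of a 2-fold change was applied only where stated. The original depth of a library cannot be read from scaled totals, and the table has no counting intervals. Within groups, the chi-square per gene averaged 1.46 to 4.87 over 12 pairs of libraries, on scaled values, which cannot be set against counting noise. None held the same values as another, and each was used as a separate library. Tests were two-sided.

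The replicate numbers come from the labels. Deviations from group means correlated between same-numbered libraries at 0.157 to 0.481 in each of 18 pairs, above the limit of 0.1 set for pairing, and the replicate number was added as a block in a second model. Exon lengths are from GENCODE M21 of GRCm38, found for 18359 gene identifiers and not for 17, and the coordinates of the 40 members were the same in it. Named were the members called in Act versus CTRL, the member with the highest level of each role, and those called in another comparison. The 3 largest changes of each list that were called were named as well. For some of these genes, values are given only for CTRL and Act, as a range, or as a fold change. A gene of the list of soluble hydrolases is not reported here. The model was tested on simulated data. The members and lists were chosen with earlier results of these data known. Alternatives were other pseudocounts (0.5 and 5), filters (none and 50), quantile normalization, median-of-ratios rescaling, only the libraries compared, no trend, fold thresholds of 1.5 and 2, the block, and leaving out each library. A correction for shared start positions of reads (−L ln(1 − x/L) for a value x and L exonic bases) was added after seeing the data. It presumes that duplicate reads were removed, which is not stated in the sources used here.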

Additional observations from a re-analysis of the deposited data

Results flagged for a closer look

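The effect of activin A differed with and without FST288 for *Ctse* and *Atp6v0a1*, as tested by the limma interaction. For *Ctse* the difference of effects was 1.226 on the log2 scale (SE 0.19), with an effect of 1.59 without FST288 and of 0.37 with it. For *Atp6v0a1* it was −0.3727 (SE 0.06), from −0.45 without and −0.08 with FST288. With the replicate block the interaction was also called for *Atp6v0e* (−0.1687, from −0.19 and −0.02), *Atp6v1g2* (−0.2456, from −0.28 and −0.04), and *Atp6v1h* (−0.2268, from −0.20 and 0.03).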

How the results depend on the processing

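No member called without the replicate block lost its call with it. With the replicate block, 4 members were higher and 11 lower in Act versus CTRL, 12 were lower in Act versus Act + FST, and 5 showed an interaction. The same counts (4, 11, 12, and 5) were obtained when the block was joined to the correction for shared start positions. In a fit of only the libraries compared, 2 members were higher in Act versus CTRL and 1 in Act versus Act + FST. A fold threshold of 1.5 or of 2 left 1 member called in place of 7. The median log2 fold change of the members was −0.098 after quantile normalization, against −0.009 over all genes. Quantile normalization raised the lower calls from 6 to 8 among the members and from 1428 to 1662 over all genes. After the correction the median of the members was −0.0948, with or without the block. Leaving out single libraries gave 1 to 2 members higher and 2 to 7 lower in Act versus CTRL, and 1 to 3 higher and 2 to 10 lower in Act versus Act + FST. Shares over all genes are not given for these fits or for that of only the libraries compared. The member counts therefore cannot be set against them. The sign of *Ctsa*, which was not called, turned under quantile normalization (−0.0227) and in 2 of the 12 fits without a library (−0.0143 to 0.0188). *Ctsl* was not called in the fit of only the libraries compared (limma adjusted p = 0.055) or without the trend (0.08), and *Atp6v0e* not without the trend (0.051). The causes of these shifts were not tested. *Ctse*, *Atp6v0a1*, and *Atp6v1h* kept their call in all 23 alternatives run for single genes. The original depth cannot be read from the scaled values, and precision was lowest for genes with few counts such as *Ctsg* (95% interval −2.08 to 0.51).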
